A study of Homo sapiens with 6 samples.

Results

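The heat shock proteins are the molecular chaperones of the cell, and 10 of their genes are described here in HSC-4, an established cell line from a human squamous carcinoma of the mouth. They are the small heat shock protein genes *CRYAB*, *HSPB1* and *HSPB8*, the HSP70 genes *HSPA1A*, *HSPA1B* and *HSPA8*, the HSP110 gene *HSPH1*, the HSP90 gene *HSP90AA1*, and the genes of the co-chaperones *DNAJB1* and *BAG3*. They were taken by their current symbols from the 58884 genes of the count tables, and all 10 passed the filter on low counts, as did 15001 genes in all. The members were chosen by their values in DAPT-treated against control cells, which were known at the time. The differences of these 10 genes are therefore a description, given as values with their errors. Where the text says whether one of them was called in the fit over all genes, this describes the fit and supports nothing about the gene.

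DAPT inhibits γ-secretase, the protease that frees the intracellular domain of Notch receptors so that it can enter the nucleus. RNA was sequenced from 3 libraries of cells treated with 50 μM DAPT for 24 h and from 3 libraries labelled control. The controls received the vehicle DMSO according to the study's methods. Their count columns carry the letters GM, which the sources do not explain, and if this stands for medium without DMSO, effects of vehicle and inhibitor cannot be told apart. All cells were of 1 line, and 1 dose and 1 time were used. The sources do not say whether the libraries of a group came from separate cultures, so the spread between them may be technical.

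Total read counts lay between 12276313 and 16317672 per library, and 3 reads, taken as the smallest signal, were worth between 0.187 and 0.248 CPM, the unit of read counts scaled to a common library size with TMM factors. The Notch target gene *HES1* was at 47.0 ± 4.0 CPM in control and 27.5 ± 0.402 CPM in DAPT-treated cells (SD, n = 3 each; log2 fold change -0.77, edgeR adjusted p = 7.2e-08), and *HEY1* was at 34.6 ± 1.77 and 8.75 ± 0.796 CPM (log2 fold change -1.98, edgeR adjusted p = 2.03e-13). Control replicate 1 stood apart from the other 5 libraries in its fibroblast markers. Its 6 fibroblast markers summed to 552.5 CPM, against 50.0 to 58.3 CPM elsewhere, and its *COL1A2* value was 215 CPM against at most 2.02 CPM. Of 8 squamous markers, 7 were above 3 reads in every library, but *KRT14* was nearly absent (at most 3.54 CPM), and the list summed to 5186 to 5361 CPM in control and 3339 to 3479 CPM in DAPT-treated cells. *KRT5* made up the largest part of this sum (2635 to 2757 and 1276 to 1362 CPM). *KRT6A* was also lower in each DAPT library than in each control library (501 to 534 and 183 to 190 CPM). The same held for *KRT17* (350 to 398 and 197 to 215 CPM) and *TP63* (371 to 383 and 246 to 258 CPM). In the same list *CDH1* (496 to 532 and 604 to 632 CPM) and *EPCAM* (302 to 320 and 367 to 382 CPM) were higher in each DAPT library than in each control library, and *DSG3* (447 to 482 and 440 to 454 CPM) overlapped. Endothelial markers summed to at most 1.81 CPM in control and 2.99 CPM in DAPT-treated libraries, leukocyte markers to at most 15.3 and 12.8 CPM, and striated muscle markers to at most 1.99 and 1.75 CPM. In RNA from whole cultures, fewer cells of a type and less RNA per cell cannot be told apart. The values of the 10 genes and the counts of the gene lists are given with and without control replicate 1. Of 62 called genes outside the 10 that were on a list or next to *CRYAB* or the *HSPA1A* pair, 59 were called in the same direction without it. The part of these marker differences in them was not tested.

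Chaperones bind unfolded proteins and keep them from aggregating. The small heat shock proteins hold such clients without using ATP, the HSP70 proteins bind and release them in an ATP cycle that J-domain proteins start and nucleotide exchange factors reset, and the HSP90 proteins finish the folding of kinases and steroid receptors. Under stress their genes are switched on by heat shock factor 1 (*HSF1*), which binds inverted repeats of the unit GAA in their promoters. Carcinoma cells commonly transcribe many of them without heat.

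The promoter sequences are shown first, because the heat shock element is the feature through which these genes are known to be controlled together. In the RefSeq promoter table (GRCh38.p14), which gives the 250 bases before and the 50 bases after each start site, 9 of the 10 genes had an entry, and *CRYAB* had none. The following stretches hold the matches to GAANNTTC or TTCNNGAA found upstream of a start site, in capitals. Where 2 such matches overlap in 1 unit, they form the 3-unit element, the longer runs of capitals. All are written 5′ to 3′ on the strand of the gene.
HSPA8, chr11:123062346-123062374, minus strand: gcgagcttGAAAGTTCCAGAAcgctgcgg
HSPA8, chr11:123062171-123062199, minus strand: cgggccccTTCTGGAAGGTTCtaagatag
HSP90AA1, chr14:102087085-102087152, minus strand: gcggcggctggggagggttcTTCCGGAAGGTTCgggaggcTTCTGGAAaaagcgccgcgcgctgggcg
DNAJB1, chr19:14518417-14518494, minus strand: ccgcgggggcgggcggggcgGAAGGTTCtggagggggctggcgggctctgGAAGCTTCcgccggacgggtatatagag
HSPA1A, chr6:31815417-31815464, plus strand: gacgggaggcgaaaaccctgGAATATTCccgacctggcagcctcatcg
HSPA1B, chr6:31827613-31827660, plus strand: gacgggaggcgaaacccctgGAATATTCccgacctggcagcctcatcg
HSPB1, chr7:76302471-76302518, plus strand: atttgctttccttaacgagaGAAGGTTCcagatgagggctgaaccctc
HSPB8, chr12:119178823-119178870, plus strand: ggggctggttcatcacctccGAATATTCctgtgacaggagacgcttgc

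An exact match to the 3-unit element was present in 2 of the 9 genes, *HSPA8* (starting 230 and 55 bases before the start site) and *HSP90AA1* (88 bases before it), and in 0.608% of all 27305 genes of the promoter table. Elements with a mismatched base in a unit were not searched for, so the other windows may hold such elements. Either 2-unit element, on either strand, was present in 7 of the 9 genes and in 16.2% of all genes. It was not found in the windows of *BAG3* and *HSPH1*. In these 2 windows the letters TGGGAA, the core of the site bound by the Notch pathway factor RBPJ, were present, as in 28.1% of all genes. No other window of the 9 genes held TGGGAA on either strand. CCAAT was present in 5 of the 9 genes against 39.7% of all genes, and TATAAA in *HSPA1A* and *HSPA1B*, 30 and 29 bases before the start site, against 14.0% of all genes. The stretches of *HSPA1A* and *HSPA1B* differed at 1 of 48 bases (A15C, with the *HSPA1A* base first, counted from the 5′ end). By GENCODE release 44, both *HSPA8* stretches lie in exons of *HSPA8* transcripts, those of *HSP90AA1*, *DNAJB1* and *HSPB8* lie within their genes but in no exon, that of *DNAJB1* also lies within *TECR*, and the others lie in no gene.

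**Figure D1:**
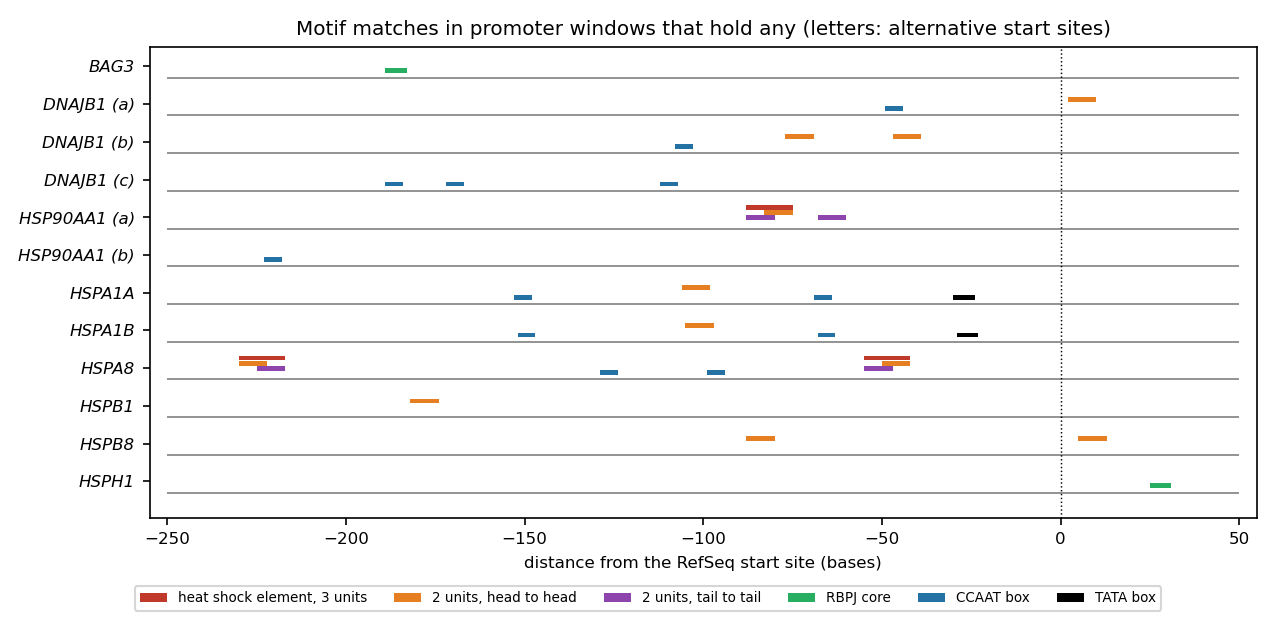
Motif matches in the RefSeq promoter windows of the heat shock genes with at least 1 match, by distance from the start site in bases. Letters in brackets mark alternative start sites of a gene. Only *HSPA8* and *HSP90AA1* show an exact match to the 3-unit heat shock element.

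Between DAPT-treated and control cells, *CRYAB* was the only 1 of the 10 genes that differed by at least 2-fold. Its transcript was present at a low level in control cells and was close to or at 0 with DAPT. *HSPB1*, *HSPA8*, *HSP90AA1*, *BAG3* and *HSPH1*, in order of their difference, were lower by 0.37 to 0.15 on the log2 scale, with each DAPT library below each control library. *HSPB8*, *HSPA1A*, *HSPA1B* and *DNAJB1* overlapped between the groups, with log2 fold changes between -0.04 and 0.07. Thus 6 of the 10 genes passed an adjusted p-value of 0.05 in the edgeR fit over all genes, all lower, and these were the same 6 whose groups did not overlap. Of all 15001 tested genes, 35.2% were called (18.0% lower and 17.2% higher), and 46.3% had groups that did not overlap (22.7% with DAPT below and 23.6% with DAPT above). Since the 10 genes were chosen with this comparison known, nothing is read from their count. The median log2 fold change was -0.19 over the 10 genes and 0.01 over all tested genes. The CPM values of the 10 genes added up to 6111, 6353 and 6399 in the control libraries and to 5524, 5164 and 5287 in the DAPT libraries.

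**Figure D2:**
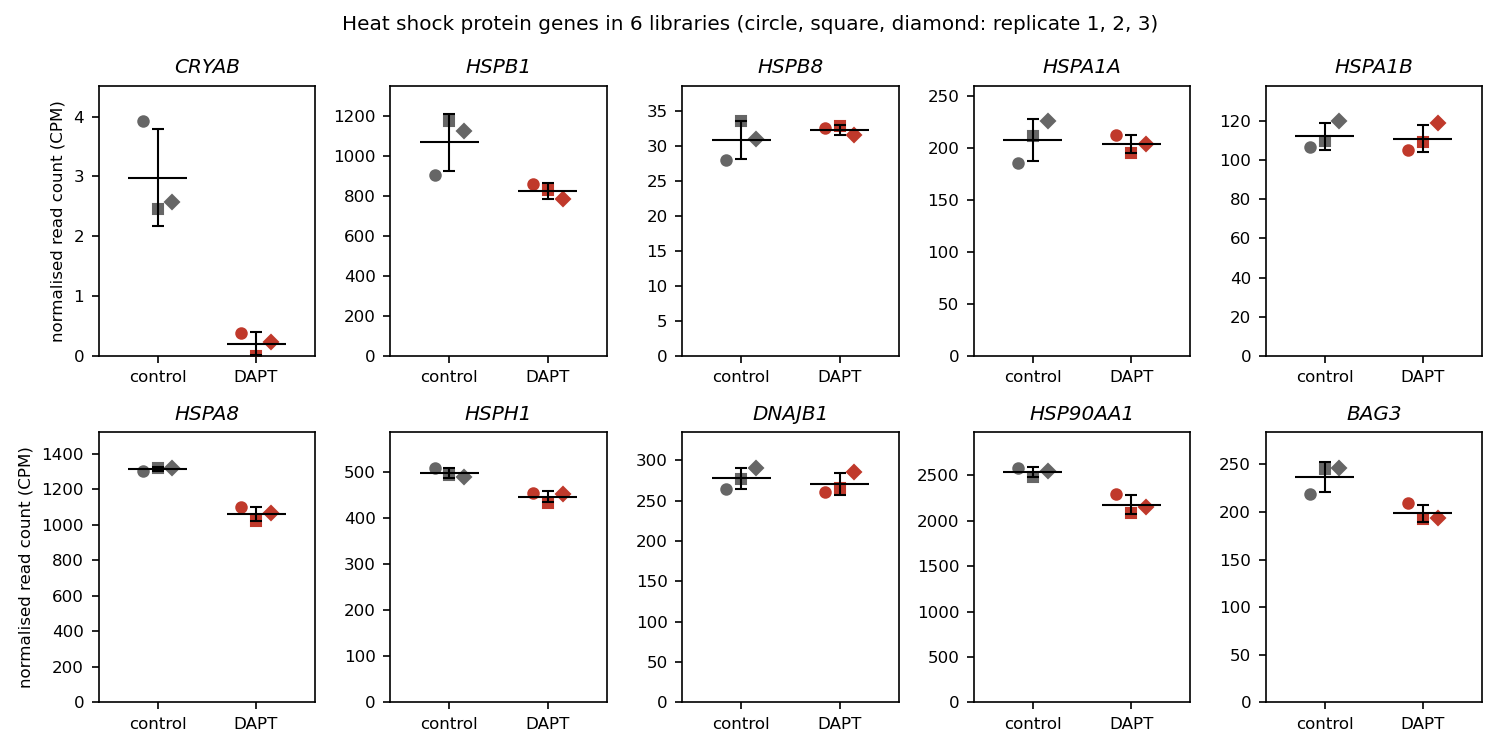
Normalised read counts in CPM of the 10 genes, with 1 panel per gene and an axis from 0. Points are libraries (replicates 1, 2 and 3 as circle, square and diamond), horizontal lines are group means and bars are SD (n = 3). The DAPT points lie below all control points for *CRYAB*, *HSPB1*, *HSPA8*, *HSPH1*, *HSP90AA1* and *BAG3*.

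Among the small heat shock proteins, *CRYAB* (chr11:111908619-111923722, minus strand) encodes αB-crystallin, a chaperone of the eye lens and of muscle. It was counted with 63, 34 and 31 reads in the control libraries and with 6, 0 and 3 reads in the DAPT libraries. These are 3.92, 2.46 and 2.57 CPM in control and 0.390, 0 and 0.230 CPM with DAPT. The groups did not overlap, and DAPT replicates 2 and 3 were at or under the smallest signal of 3 reads. *CRYAB* passed the filter on low counts through the control libraries alone. The log2 fold change was -3.77 (standard error 0.44). Over the pooled reads of each group, 128 against 9, the level was 14.3 times as high in control as in DAPT-treated cells (95% exact interval 7.28 to 31.9, for counting error only). Control replicate 1, the library with fibroblast transcripts, had the highest value. Without it, the log2 fold change was -3.50 (standard error 0.46) and the ratio was 11.7 (95% exact interval 5.81 to 26.8), from 65 against 9 reads.

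*HSPB1* (chr7:76302673-76304295, plus strand) encodes HSP27, the small heat shock protein common in epithelia. It was at 909, 1176 and 1129 CPM in the control libraries and at 861, 832 and 785 CPM in the DAPT libraries. The groups did not overlap, but control replicate 1 lay nearer to the DAPT libraries than to the other controls. The means were 1071 ± 143 and 826 ± 38.2 CPM (SD, n = 3 each). The log2 fold change was -0.37 (standard error 0.09). Without control replicate 1 it was -0.48 (standard error 0.05), and without DAPT replicate 1 it was -0.40 and was not called. Of 75-base windows of its transcript, the read length of the study, 9.39% also occurred in the transcript of the pseudogene *HSPB1P1*, so that reads from them could have been left out as mapping to several places.

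*HSPB8* (chr12:119178642-119221131, plus strand) encodes HSP22, the partner of BAG3 in chaperone-assisted autophagy. It was at 28.0, 33.5 and 31.0 CPM in the control libraries and at 32.5, 32.8 and 31.5 CPM in the DAPT libraries. The DAPT values fell within the range of the controls, and the log2 fold change was 0.07 (standard error 0.08), or 0.00 (standard error 0.07) without control replicate 1. Of the 9 small heat shock protein genes listed by family, 4 were tested and 2 of them, *CRYAB* and *HSPB1*, were called lower. Among all tested genes, 18.0% were called lower and 17.2% higher. Both called genes were chosen with this comparison known, so nothing is read from their count. The fourth tested gene was *HSPB6*, at 1.29 ± 0.307 CPM in control and 1.12 ± 0.404 CPM with DAPT (SD, n = 3 each; log2 fold change -0.20, edgeR adjusted p = 0.666, and 0.02 without control replicate 1). *HSPB2*, *CRYAA* and *HSPB7* had 0 counted reads in all 6 libraries.

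*CRYAB* and *HSPB2* lie head to head on opposite strands and overlap in the count annotation. With strand-specific counting, no read was assigned to *HSPB2* in any library. On its own strand, however, *HSPB2* is overlapped by the annotated gene *HSPB2-C11orf52*, which had no counted read either. Reads overlapping several genes were left out, so the count of 0 does not show that *HSPB2* was not transcribed. Of the 12 other genes within 50 kb of *CRYAB*, 4 were tested and 2 were called lower, beside 18.0% of all tested genes. With so few genes tested, nothing is read from this count. The 2 lower genes were *DIXDC1* (3.77 and 2.20 CPM, log2 fold change -0.80, edgeR adjusted p = 0.00621) and *CFAP68* (11.4 and 9.27 CPM, log2 fold change -0.31, edgeR adjusted p = 0.0403). *ALG9* (log2 fold change 0.08) and *FDXACB1* (-0.10) were not called, with edgeR adjusted p-values of 0.594 and 0.793. *DIXDC1* was not called without DAPT replicate 1 (-0.57, edgeR adjusted p = 0.0521), and *CFAP68* was called in only 1 of the 6 fits that left out a library, that without control replicate 3. The profile of *CRYAB* over the 6 libraries was compared with that of 14198 genes with a mean of at least 1 CPM. The nearest by root mean square difference on the log2 scale were *FABP4* (0.277), *KRT14* (0.619), *SLC39A2* (1.19), *SERPINB4* (1.38) and *LINC00626* (1.48). The same 5 genes were nearest without control replicate 1. *FABP4*, a fatty acid binding protein, had a mean of 2.31 CPM in control and 0.185 CPM in DAPT-treated cells. Like *CRYAB* (0.207 CPM with DAPT), it was about at the floor of 3 reads there. The nearness of such profiles therefore depends on few reads and on the constant added before the logarithm. *KRT14* and *SERPINB4* have near-identical copies in the genome, and their counts are uncertain for that reason.

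Among the HSP70 proteins, *HSPA8* (chr11:123057489-123063230, minus strand) encodes HSC70, the constitutive member that folds new proteins and delivers clients to the lysosome. It was at 1303, 1323 and 1322 CPM in the control libraries and at 1098, 1020 and 1067 CPM in the DAPT libraries. The controls lay close together, and all 3 DAPT libraries were below them. The log2 fold change was -0.31 (standard error 0.05) and -0.32 (standard error 0.04) without control replicate 1.

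*HSPA1A* (chr6:31815464-31817946, plus strand) and *HSPA1B* (chr6:31827738-31830254, plus strand) encode the stress-inducible HSP70 and are near-identical copies. Of the 75-base windows of their transcripts, 73.8% of *HSPA1A* and 73.3% of *HSPA1B* also occurred in transcripts of another gene, mostly the other copy. Reads that mapped to several places were not counted, so both levels are too low by an unknown amount and the division between the copies is uncertain. *HSPA1A* was at 185.5, 210.9 and 225.5 CPM in control and at 212.4, 194.9 and 203.6 CPM with DAPT. *HSPA1B* was at 106.6, 109.9 and 119.9 CPM in control and at 105.2, 109.2 and 118.9 CPM with DAPT. The groups overlapped for both copies, and the log2 fold changes were -0.02 (standard error 0.06) and -0.01 (standard error 0.06), values that turned to 0.02 and 0.03 with scaling by library size alone and to 0.04 and 0.03 without control replicate 3. With both counted as 1 gene, the sums were 292, 321 and 345 CPM in control and 318, 304 and 322 CPM with DAPT (log2 fold change -0.02, standard error 0.06). *HSPA1A* made up between 63.1% and 66.9% of the pair in each library.

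Without control replicate 1 the log2 fold changes were -0.10 (standard error 0.05) for *HSPA1A* and -0.05 (standard error 0.06) for *HSPA1B*. Of the 14 other genes within 50 kb of the pair, 8 were tested. Of these, 1 was called lower and 2 higher, beside 18.0% and 17.2% of all tested genes. *VARS1*, the cytosolic valyl-tRNA synthetase, was lower (log2 fold change -0.46, edgeR adjusted p = 1.72e-05), and *NEU1*, a lysosomal sialidase (0.47, edgeR adjusted p = 1.61e-06), and *VWA7* (0.40, edgeR adjusted p = 0.04) were higher, the last called in only 1 of the 6 fits that left out a library, that without control replicate 2. *HSPA1L*, the HSP70 gene next to *HSPA1A* on the other strand, was at 6.23 ± 0.217 and 7.22 ± 0.851 CPM (SD, n = 3 each; log2 fold change 0.21, edgeR adjusted p = 0.255).

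*HSPH1* (chr13:31134974-31162388, minus strand) encodes HSP110, which exchanges the nucleotide of HSP70 and takes part in pulling aggregates apart. It was at 509, 493 and 489 CPM in the control libraries and at 454, 433 and 453 CPM in the DAPT libraries. The groups did not overlap, and the log2 fold change was -0.15 (standard error 0.05), or -0.13 (standard error 0.04) without control replicate 1. This was the smallest difference among the 6 genes with separate groups, and it was not called with scaling by library size alone (-0.11) or without DAPT replicate 2 (-0.13).

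*DNAJB1* (chr19:14514769-14529770, minus strand) encodes HSP40, a J-domain protein that loads clients onto HSP70. It was at 264, 277 and 291 CPM in the control libraries and at 261, 265 and 286 CPM in the DAPT libraries. The groups overlapped. The log2 fold change was -0.04 (standard error 0.05), which turned to 0.01 with scaling by library size alone and was -0.07 (standard error 0.05) without control replicate 1.

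*BAG3* (chr10:119651370-119677819, plus strand) encodes a nucleotide exchange factor that links HSP70 to HSPB8 and to autophagy. It was at 218.7, 245.5 and 246.4 CPM in the control libraries and at 209.2, 192.7 and 193.4 CPM in the DAPT libraries. Each DAPT library lay below each control library, and control replicate 1 was the nearest to them. The log2 fold change was -0.25 (standard error 0.05) and -0.31 (standard error 0.05) without control replicate 1.

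*HSP90AA1* (chr14:102080738-102139699, minus strand) encodes the inducible cytosolic HSP90α. It was at 2583, 2482 and 2543 CPM in the control libraries and at 2290, 2084 and 2149 CPM in the DAPT libraries. The groups did not overlap, and the log2 fold change was -0.22 (standard error 0.05), or -0.21 (standard error 0.05) without control replicate 1. Of its 75-base windows, 6.66% occurred in transcripts of other genes, mostly the pseudogene *HSP90AA2P*.

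**Figure D3:**
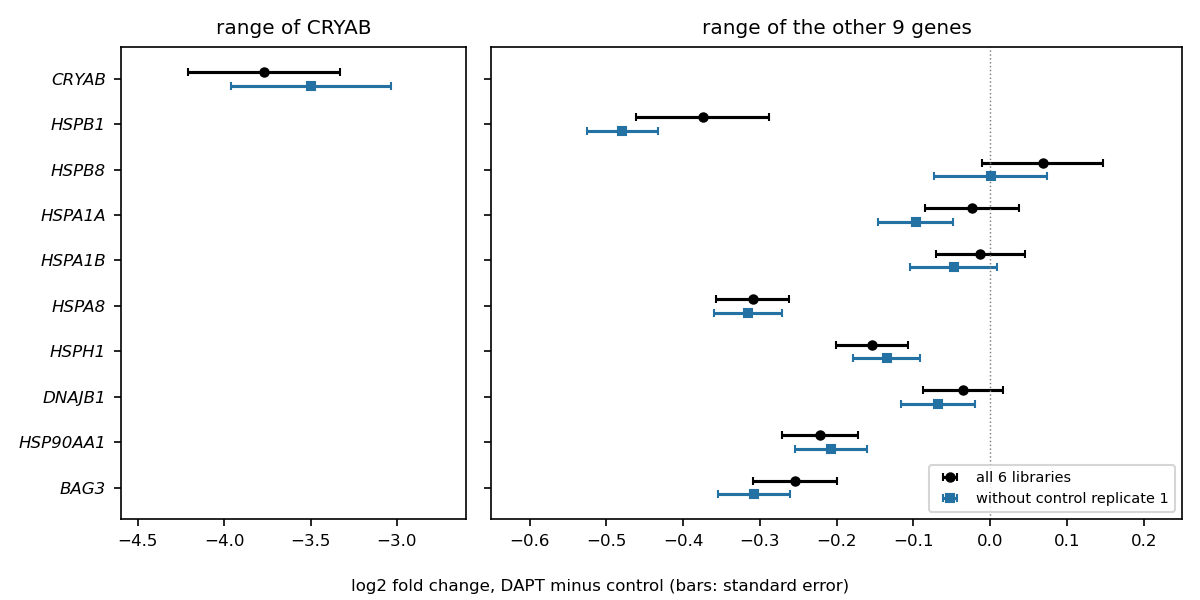
Log2 fold change of each gene, DAPT minus control, with its standard error, over all 6 libraries (circles) and without control replicate 1 (squares). *CRYAB* has an axis of its own. *HSPB1* moves from -0.37 to -0.48 without that library, and *HSPB8* from 0.07 to 0.00.

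Per kilobase of exon (in RPKM), the 10 genes spanned a wide range of levels in control cells. *HSPB1* was the most abundant at 712 ± 94.8 RPKM (SD, n = 3), ahead of *HSP90AA1* at 483 ± 9.67 RPKM and *HSPA8* at 271 ± 2.35 RPKM. *BAG3* (86.2 ± 5.73 RPKM), *HSPA1A* (83.5 ± 8.14 RPKM) and *DNAJB1* (76.0 ± 3.60 RPKM) came next, and in this order neighbours overlapped between libraries, so that the counted levels did not differ beyond their spread. *HSPH1* followed at 59.2 ± 1.30 RPKM, *HSPA1B* at 44.6 ± 2.77 RPKM and *HSPB8* at 10.8 ± 0.960 RPKM. Since most windows of *HSPA1A* and *HSPA1B* are shared and such reads were not counted, their levels are lower limits, and their places in this order and against their neighbours are uncertain. *CRYAB* was the lowest at 0.688 ± 0.189 RPKM, at percentile 13.4 of the tested genes, while *HSPB1* stood at percentile 99.8. The order also depends on the length used. With the length of the MANE transcript, *DNAJB1* took rank 4 (124 RPKM) ahead of *HSPH1* (94.8 RPKM) and *BAG3* (92.5 RPKM), and *CRYAB* was at 3.85 RPKM. With the length of the longest coding transcript, *HSPH1* took rank 4 (94.8 RPKM) and *DNAJB1* rank 7 (64.9 RPKM). The first 3 and the last 3 ranks were the same with all these lengths, and leaving out control replicate 1 gave the same order of all 10 genes by exon length.

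**Figure D4:**
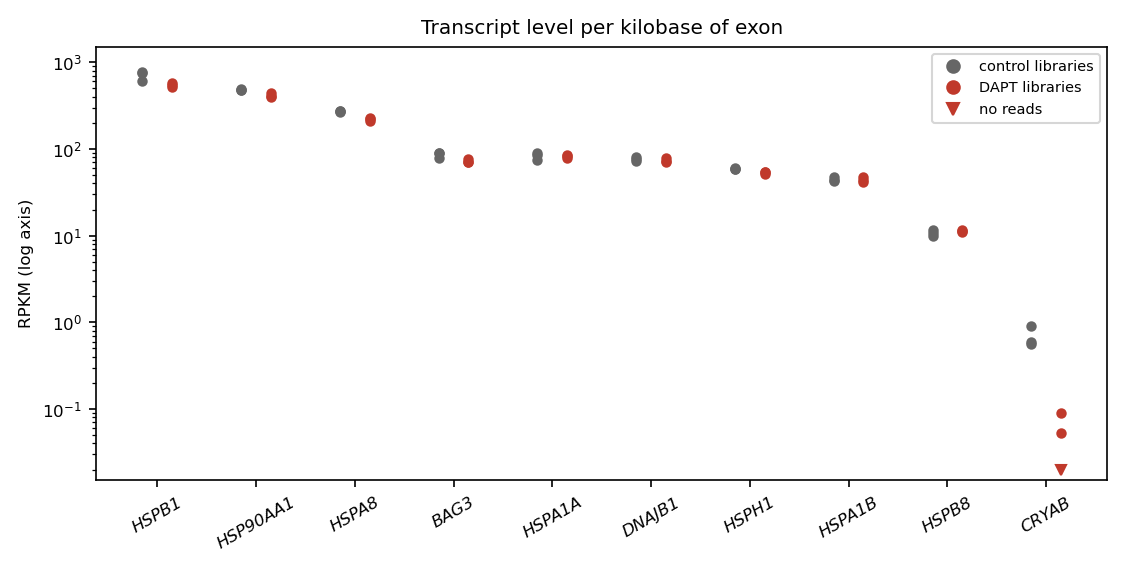
Transcript level of the 10 genes in RPKM, the CPM value per kilobase of exon, on a log axis, ordered by the control mean, with 1 point per library. The triangle at the lower edge is a DAPT library with no *CRYAB* reads. The levels run from 712 RPKM for *HSPB1* to 0.688 RPKM for *CRYAB* in control cells.

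The genes of the chaperone families were counted from lists written by family. These lists include the 10 genes above and 6 heat shock factors and regulators, which are not chaperones. The shares of all tested genes given beside the list counts, here and below, were not matched for expression level. Of 122 genes, 112 were tested, 31 were called lower and 18 higher, beside 18.0% lower and 17.2% higher among all tested genes, and the median log2 fold change was -0.04. Without the 10 genes above, 25 of 102 were called lower and 18 higher. In the HSP90 family, 3 of 4 genes were lower and none was higher, and 2 of the 3 besides *HSP90AA1* were lower. *HSP90AB1*, the constitutive cytosolic member, was at 2432 ± 21.0 and 2006 ± 59.2 CPM (log2 fold change -0.28, edgeR adjusted p = 9.25e-05) and the mitochondrial *TRAP1* at 94.1 ± 6.0 and 73.5 ± 2.33 CPM (-0.36, edgeR adjusted p = 5.47e-05), while *HSP90B1* of the endoplasmic reticulum was not called (-0.11, edgeR adjusted p = 0.121). Among 16 co-chaperones of HSP90, 6 were lower and 1 was higher. The 4 with the smallest p-values were *FKBP4* (-0.36), *CACYBP* (-0.31), *AHSA1* (-0.31) and *PTGES3* (-0.24), with edgeR adjusted p-values from 9.87e-06 to 0.00107. *TOMM34*, named after its value was seen, was the higher 1 (0.14, edgeR adjusted p = 0.0377) and was not called without control replicate 1, 2 or DAPT replicate 1 or 3, with edgeR adjusted p-values from 0.064 to 0.135. *STUB1*, a ubiquitin ligase of chaperone clients, was not called (0.14, edgeR adjusted p = 0.0578). With scaling by library size alone it was called higher (0.19, edgeR adjusted p = 0.0124), and 5 co-chaperones were lower and 3 higher.

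In the HSP70 and HSP110 family, 4 of 14 tested genes were lower and 4 were higher (28.6% each, beside 18.0% and 17.2% of all tested genes). Outside the 10 genes above, 2 of 10 were lower and 4 higher. Among these, *HSPA2*, best known from testis, was at 167 ± 7.22 CPM in control and 87.9 ± 3.56 CPM in DAPT-treated cells (SD, n = 3 each; log2 fold change -0.92, edgeR adjusted p = 1.3e-11). *HSPA5*, the HSP70 of the endoplasmic reticulum, was at 1881 ± 71.0 and 2158 ± 65.2 CPM (0.20, edgeR adjusted p = 0.00322). *HYOU1*, its nucleotide exchange partner (0.34, edgeR adjusted p = 2.08e-05), and *HSPA13* (0.37, edgeR adjusted p = 2.65e-04) were higher as well. The remaining calls, named after their values were seen, were the lower *HSPA4* (-0.21, edgeR adjusted p = 0.00461) and the higher mitochondrial *HSPA9* (0.16, edgeR adjusted p = 0.0122), which was not called without control replicate 2 or 3 (edgeR adjusted p = 0.0588 and 0.0925). The family's median was -0.02 and turned to 0.03 with scaling by library size alone and to 0.02 and 0.00 without control replicate 3 and DAPT replicate 2. *HSPA6*, a strictly heat-induced member, was at 0.0965 CPM in control and 0.184 CPM in DAPT-treated cells and was not tested.

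Of 42 tested J-domain proteins, 12 were higher (28.6%) and 3 were lower (7.14%), beside 17.2% and 18.0% of all tested genes. Scaling by library size alone gave 15 and 1, and with it 61.5% of all calls were higher. The higher genes with the smallest p-values were *DNAJC1* (0.37), *DNAJC16* (0.38), *DNAJB14* (0.35), *DNAJB12* (0.25), *DNAJC3* (0.21), *DNAJA3* (0.22) and *DNAJC10* (0.19), with edgeR adjusted p-values between 9.38e-04 and 0.00505. *DNAJB5* was lower (-0.43, edgeR adjusted p = 0.0023), as were *DNAJC7* (-0.16, edgeR adjusted p = 0.0203) and *DNAJB6* (-0.14, edgeR adjusted p = 0.0263), which were named after their values were seen. Without DAPT replicate 2 neither of these was called, which left 1 lower gene, and *DNAJC7* was lost without control replicate 3, *DNAJB6* without control replicate 2 or DAPT replicate 3 and *DNAJC10* without control replicate 2. Among 10 BAG and other nucleotide exchange factors, 3 were lower (30%) and 1 was higher (10%), or 2 and 2 with library size alone, beside the same 18.0% and 17.2%. The lower genes besides *BAG3* were *BAG1* (-0.24, edgeR adjusted p = 0.0016) and *HSPBP1* (-0.23, edgeR adjusted p = 0.0397), which was called in only 1 of the 6 fits that left out a library, that without control replicate 1, and the higher was *SIL1*, the exchange factor of *HSPA5* (0.40, edgeR adjusted p = 1.97e-04). Of 16 chaperonin and prefoldin genes, which fold actin, tubulin and mitochondrial proteins, 9 were lower (56.2%, beside 18.0% of all tested genes) and none was higher. They included *HSPE1* (-0.41, edgeR adjusted p = 2.63e-04), *CCT2* (-0.32, edgeR adjusted p = 5.47e-05), *CCT5* (-0.28, edgeR adjusted p = 7.03e-05), *CCT8* (-0.27, edgeR adjusted p = 1.65e-04) and *HSPD1* (-0.14, edgeR adjusted p = 0.019), which was not called without DAPT replicate 2 or with library size alone (edgeR adjusted p = 0.089 and 0.101).

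Without control replicate 1, the counts lower and higher were 3 and 0 for HSP90, 7 and 0 for its co-chaperones, 4 and 4 for HSP70 and HSP110, 3 and 14 for J-domain proteins, 4 and 2 for exchange factors, and 10 and 0 for chaperonins and prefoldin. Without control replicate 3, 2 exchange factors were higher. Over all fits that left out a library, between 7 and 10 chaperonin and prefoldin genes were lower. With scaling by library size alone 7 of them were lower and none was higher.

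**Figure D5:**
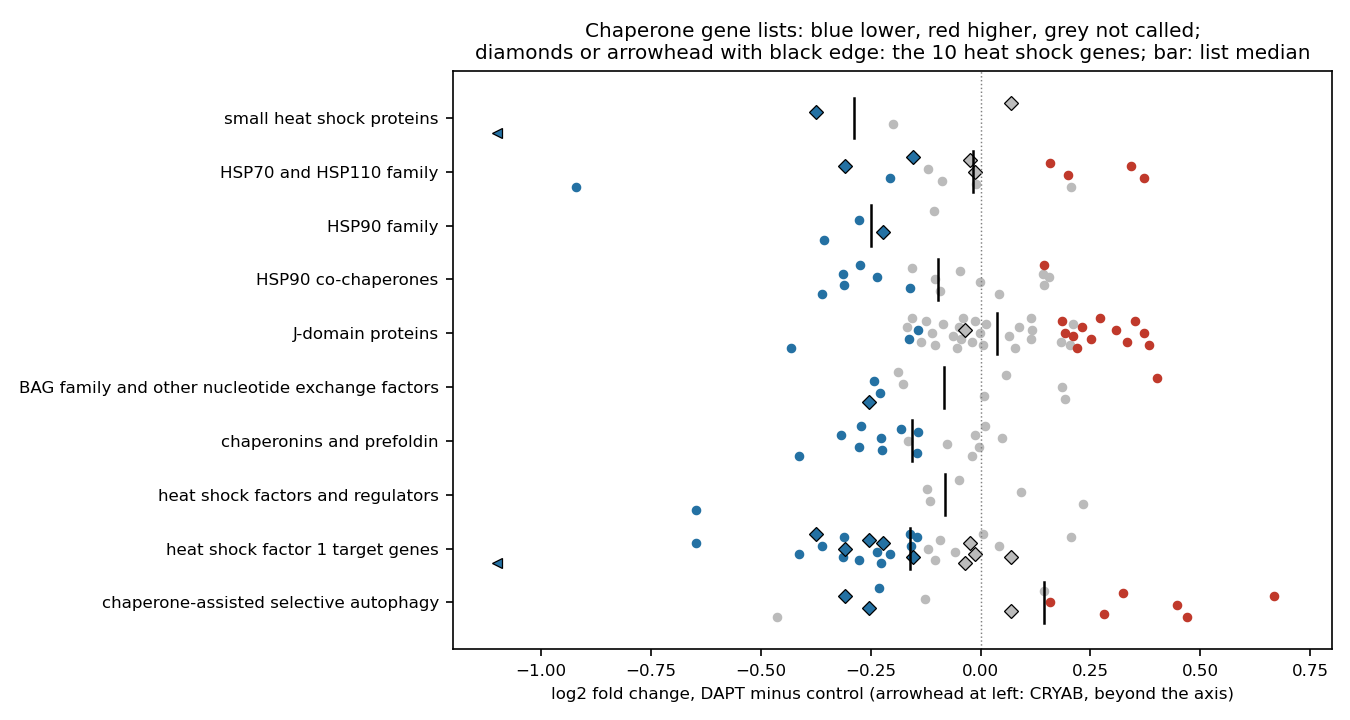
Log2 fold change (DAPT minus control) of each tested gene by list, with the list median as a bar. Blue genes were called lower and red genes higher by edgeR at an adjusted p-value under 0.05, grey genes were not called, and black edges mark the 10 heat shock genes, *CRYAB* as an arrowhead beyond the axis. J-domain proteins lie mostly right of 0 among the called genes, chaperonins and HSP90 left of it.

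None of the heat shock factor transcripts was called. *HSF1* was at 91.4 ± 6.42 CPM in control and 88.2 ± 5.71 CPM in DAPT-treated cells (SD, n = 3 each; log2 fold change -0.05, edgeR adjusted p = 0.573), *HSF2* had a log2 fold change of 0.09 (edgeR adjusted p = 0.489) and *HSF4* of -0.12 (edgeR adjusted p = 0.479). *IER5*, an immediate early gene whose product promotes the activity of HSF1, was at 111 ± 9.94 CPM in control and 70.7 ± 3.23 CPM with DAPT (log2 fold change -0.65, standard error 0.06, edgeR adjusted p = 7.16e-08). The activity of HSF1, which is regulated on the protein, was not measured. Of 29 tested genes known as HSF1 targets, 18 were called lower and none higher, against 18.0% and 17.2% of all tested genes. Among the 19 that are not among the 10 genes, 12 were lower, and the median was -0.16. They overlap with the families above. Without control replicate 1, 19 of the 29 were lower and none was higher. Over all fits that left out a library, between 15 and 19 were lower. With scaling by library size alone 14 were lower, none was higher and the median of the list was -0.11.

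Genes were also counted by an exact match to the 3-unit heat shock element in their promoter window, which leaves out genes with mismatched elements. Of the 166 genes with the element in the promoter table, 103 were matched to the count tables and 56 were tested, of which 9 (16.1%) were lower and 7 (12.5%) higher. Without *HSPA8* and *HSP90AA1*, 7 of 54 were lower and 7 higher. The median log2 fold change was 0.02. It was 0.07 with scaling by library size alone and -0.01 and 0.00 without control replicates 2 and 3. Of the 11073 tested genes with a promoter entry, 18.6% were lower and 18.4% higher, with a median of 0.01. Without control replicate 1, 12 of 57 genes with the element were lower and 7 higher, and with scaling by library size alone 6 were lower and 10 higher. Without DAPT replicate 2, 4 were higher.

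In chaperone-assisted selective autophagy, client proteins are handed to autophagosomes. *BAG3*, *HSPB8* and *HSPA8* were counted with other genes listed for it. The list also holds general genes of the autophagosome and lysosome, so its counts do not describe the partners of *BAG3* alone. Of 13 genes, 6 were higher (46.2%) and 3 lower (23.1%), beside 17.2% and 18.0% of all tested genes. Of the 10 that are not among the heat shock genes above, 6 were higher and 1 was lower. *SQSTM1*, the receptor that ties ubiquitinated clients to autophagosomes, was at 259 ± 13.1 CPM in control and 354 ± 6.57 CPM with DAPT (SD, n = 3 each; log2 fold change 0.45, edgeR adjusted p = 3.66e-07). *MAP1LC3B* of the autophagosome membrane (0.47, edgeR adjusted p = 8.12e-07) and *LAMP2* of the lysosome (0.32, edgeR adjusted p = 1.32e-05) were higher as well. The other higher genes, named after their values were seen, were *WIPI1* (0.67), *NBR1* (0.28) and *GABARAPL1* (0.16). *GABARAPL1* was not called without control replicate 2 or 3 or DAPT replicate 2 or 3. *HSPB8*, *STUB1*, *SYNPO2* and *VPS18* were not called. The lower genes were *BAG3*, *HSPA8* and *SYNPO* (-0.23, edgeR adjusted p = 0.00481), the last named after its value was seen and not called without DAPT replicate 2 (edgeR adjusted p = 0.0546). Without control replicate 1, 6 were higher and 3 lower.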

How the data were processed

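Gene expression was measured by single-end sequencing of mRNA from HSC-4 cells. The authors used Trim Galore for trimming and HISAT2 for mapping to GRCh38. Per the file headers, reads on the exons and strand of Ensembl release 96 genes were counted with featureCounts 1.6.3. The submitters' processing notes also name HTSeq and DESeq2. The deposited values are raw read counts per gene, without normalization. By the counter's defaults, reads that mapped to several places or overlapped several genes were left out. Groups and replicate numbers came from the sample labels.

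DAPT-treated and control libraries were compared in edgeR 4.0.16 (R 4.3.3) with a filter on low counts (minimum count 10, by group), TMM factors, a robust quasi-likelihood fit and Benjamini-Hochberg adjustment over 15001 genes, called at an adjusted p-value under 0.05. CPM values are scaled with TMM factors, and RPKM values divide them by the exon length of the count tables. Symbols of 58472 of 58884 identifiers came from GENCODE release 44. P-values weigh the difference between the groups against the spread between these libraries, which may be technical. Intervals and the floor of 3 reads cover counting error only. Counts were compared between replicates, and no pair of a group differed by as little as sampling noise. Replicate 1 differed most in both groups. Chi-square over its degrees of freedom was 5.34 and 5.25 for control replicate 1 against replicates 2 and 3, and 1.57 between these. For DAPT replicate 1 against replicates 2 and 3 it was 4.07 and 3.89, and 1.80 between these. The fit was tested on simulated data.

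The 10 genes and all lists were chosen with earlier results of these data known. The lists were written by name from general knowledge. Genes named outside the 10 were at most 4 per list with the smallest adjusted p-value (8 for J-domain proteins), a set of named partners and heat shock factors, genes within 50 kb of *CRYAB* and the *HSPA1A* pair, and the 5 profiles nearest to *CRYAB*. Exceptions are marked. Promoter motifs were searched on both strands of the RefSeq table, and 75-base windows by exact match in GENCODE transcripts. A comparison of protein sequences was planned and not made here.

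The alternatives were RLE factors, library size alone, no filter, at least 10 counts in every library, DESeq2 1.42.0, limma-voom (limma 3.58.1), the replicate number as a block, and each library left out in turn. The leave-out of control replicate 1 is given beside the results because its fibroblast transcripts were seen in the data, and the MANE length was added after the data were examined.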

Additional observations from a re-analysis of the deposited data

How the results depend on the processing

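The values of the 10 genes in the alternatives describe the comparison they were chosen on and support nothing. Over all alternatives the log2 fold change of *HSPA8* lay between -0.33 and -0.26, that of *HSP90AA1* between -0.26 and -0.18 and that of *BAG3* between -0.31 and -0.21. *CRYAB* was not tested with at least 10 counts in every library, where 1 small heat shock protein was called in place of 2. Leaving out each library in turn, this number lay between 1 and 2, and it was 1 without DAPT replicate 1, where *HSPB1* was not called. The log2 fold change of *CRYAB* then lay between -4.64 and -3.22. Scaling by library size alone moved the median of all tested genes from 0.01 to 0.06 and the calls from 2574 higher and 2707 lower (48.7% higher) to 3445 and 2156 (61.5% higher). DESeq2 called 3974 genes, 3955 of them among the 5281 of edgeR in the same direction, and the leave-out fits called between 4174 and 5618.

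With the replicate number as a block, 5295 genes were called, 5100 of them the same gene and direction, and 6 of the 10 heat shock genes. Same-numbered libraries correlated by 0.0173, 0.0252 and 0.00382 in their deviations from the group means. Whether they share more than a number, such as a culture or a batch, was not tested. Depth limits *CRYAB* most, with 0 to 6 reads per DAPT library.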
